A study of Mus musculus with 70 samples.

Results

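Regulatory T cells (Tregs) that lacked surface ST2 and carried high CD44 were compared between back skin and colon, 2 barrier tissues. The members were the libraries labelled Skin ST2- CD44hi Tregs and Colon ST2- CD44hi Tregs with a column total above 1000000 counts, which gave 5 skin and 5 colon libraries, 10 of the 70 samples in the series. All samples came from the same 5 male Foxp3YFP-cre mice, which carry the Foxp3tm4(YFP/icre)Ayr allele on the B6.129(Cg) background, aged 16.6 to 18.6 weeks, with no treatment given in the labels, so each mouse gave 1 skin and 1 colon library. YFP fused to Cre is driven by Foxp3 in this strain, and YFP therefore marked the cells that were using the Foxp3 locus when they were sorted. Live single cells that carried CD4, CD45.2 and YFP and lacked CD8 and markers of myeloid and B cells were sorted, 220 cells for each library, and cDNA was made with the SMART-Seq v4 kit. Skin and colon were taken apart with different digestion protocols, so that effects of digestion and of tissue cannot be told apart. ST2+ CD44hi Tregs of the same tissues (5 skin and 3 colon libraries) and spleen ST2- CD44hi Tregs (5 libraries) were used for reference levels.

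Tregs are CD4+ T cells that restrain immune responses and depend on the transcription factor FOXP3. CD44hi Tregs are antigen-experienced cells, and those in skin and gut are long known to differ in the receptors that bring them into the tissue, in their helper-lineage transcription factors and in the products they release. ST2 is the receptor for IL-33 and marks only a portion of tissue Tregs, so the ST2- cells compared here are the tissue Tregs outside that population.

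Column totals were 1545763 to 2426957 counts in skin and 1592181 to 2338195 in colon, and the medians were 1707138 and 1701012. Levels are given as CPM, counts scaled to a library total of 1000000 with trimmed-mean factors, always in the order of mouse 1 to mouse 5. All 10 genes on the list of T cell and Treg defining markers had counts in both groups, and their summed level was 5634 to 8126 CPM in skin and 5478 to 7079 CPM in colon. Of 9 tested, 4 passed as higher in skin (against 6.62% of all tested genes). Ranked by all tested genes, skin libraries resembled each other (median Spearman's rho 0.913 over 10 pairs) and so did colon libraries (0.916 over 10 pairs), while pairs of 1 skin and 1 colon library were less alike (0.864 over 25 pairs).

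Transcripts of other cells were present and were not even across libraries. The 8 B and plasma cell markers summed to 5.10 to 9.28 CPM in skin and to 1218 to 1801 CPM in all 5 colon libraries, with Pax5, Mzb1 and Tnfrsf17 among those at 0 in every skin library. Intestinal epithelium markers summed to 4429 CPM in colon mouse 2 and to 71.0 to 615 CPM in the other colon libraries. Endothelial markers stood at 1058 and 923 CPM in colon mice 2 and 3, against 57.9 to 181 CPM in the other colon libraries. In skin, keratinocyte markers summed to 1567 CPM in mouse 3 and 676 CPM in mouse 1, against 109 to 208 CPM in the other mice. Among single markers, the basal keratin gene Krt14 was at 18.7, 5.25, 563, 4.28 and 22.2 CPM in skin, and Lypd8, of colon epithelium, was at 0 in all skin libraries and at 10.1, 545, 76.7, 1.26 and 62.1 CPM in colon. Mzb1, a plasma cell gene, was at 76.6, 125, 118, 189 and 147 CPM in colon, and H2-Ab1, an MHC class II gene, was at 51.5, 70.3, 69.9, 5.71 and 7.03 CPM in skin and 81.0, 596, 162, 216 and 70.7 CPM in colon. Krt14 and Lypd8 were highest in the libraries with the highest sums, Mzb1 was high in all colon mice, and the lower level of H2-Ab1 in skin was not called without skin mouse 4 or 5 or colon mouse 2 (adjusted p = 0.0847 to 0.182). Of 74 tested markers of other cells, 6 passed as higher in skin and 16 as lower in skin (against 6.62% and 8.96% of all tested genes). The part of such cells in the results below was not tested. Whether fewer cells using a gene or less RNA in each cell lowered a level cannot be told apart in bulk libraries.

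**Figure D1:**
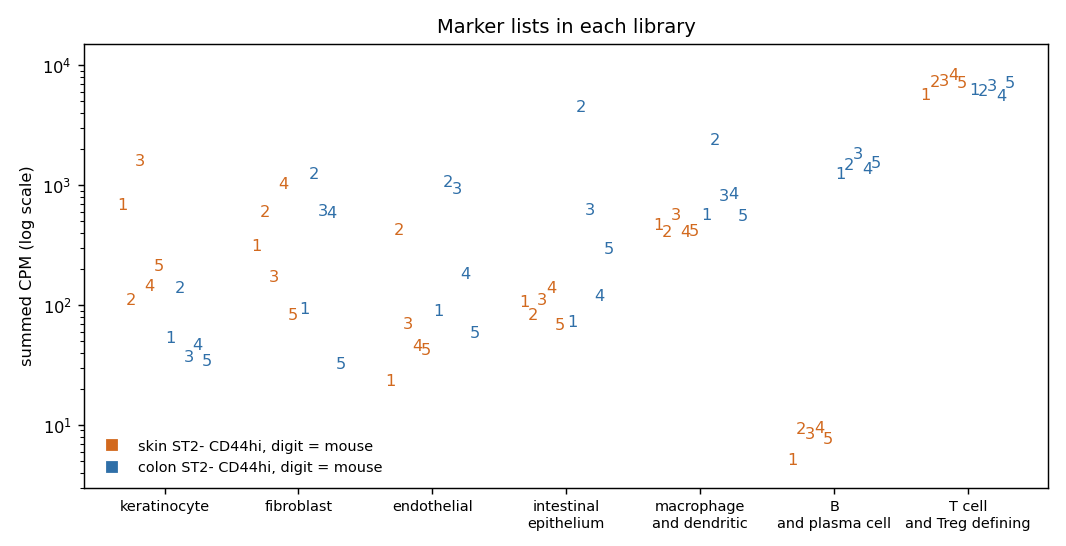
Summed CPM (log scale) of the markers of 6 other cell types and of T cells and Tregs in each ST2- CD44hi library of skin and colon. Each digit is the library of that mouse. B and plasma cell markers separate the tissues in all mice, epithelial markers are highest in colon mouse 2 and keratinocyte markers in skin mouse 3, while the T cell and Treg markers lie at similar heights.

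Of 13173 protein-coding genes tested, 2052 (15.6%) were differentially expressed (DEGs, with a fold change of 1.5 or more and an adjusted p up to 0.05 by the quasi-likelihood test of edgeR and Benjamini-Hochberg correction). There were 872 genes higher in skin (6.62%) and 1180 lower in skin (8.96%), and the median log2 fold change of all tested genes was -0.10. Log2 fold changes below are skin over colon with the standard error (SE), and adjusted p always refers to that test over the 13173 genes. The 5 libraries of each tissue did not overlap for 661 of the 872 genes higher in skin and for 688 of the 1180 lower genes. Over all tested genes, every skin library was above every colon library for 7.38% and below for 6.94%. In the fit of all 14 groups, changes of at least 4 fold were more numerous among the lower DEGs (375 of 1180) than among the higher DEGs (113 of 872). Such changes were not counted in other fits. Fitted to the 10 libraries alone, the same method called 959 genes higher and 797 lower, so that the share of higher genes was 54.6% in that fit and 42.5% in the fit of all 14 groups, and which direction was more numerous depended on the fit.

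The GIMAP family was lower in skin as a whole. These genes encode GTPases of lymphocytes that are known for their role in T cell survival, and the 8 that were tested lie in a cluster on chromosome 6 (GRCm38 chr6:48647234-48770851). All 8 were DEGs and all 8 were lower in skin (against 8.96% of all tested genes), with a median log2 fold change of -3.25. The tissues did not overlap for any of them (against 6.94% of all tested genes with every skin library below every colon library). Gimap6, which had the smallest p of the lower genes, was at 49.3, 93.3, 77.5, 94.9 and 86.7 CPM in skin and at 841, 894, 873, 982 and 988 CPM in colon (log2 fold change -3.52 ± 0.13 SE, adjusted p = 1.50e-30). Gimap7 was close to 0 in skin, at 0.851, 0, 2.54, 4.995 and 10.5 CPM, against 240.4, 255, 357, 306 and 404 CPM in colon (log2 fold change -6.39 ± 0.34 SE, adjusted p = 3.91e-23). Gimap4 was at 41.2, 46.6, 87.1, 59.2 and 55.6 CPM in skin and 703, 631, 899, 669 and 896 CPM in colon (log2 fold change -3.72 ± 0.18 SE, adjusted p = 7.57e-25). Every colon library was thus far above every skin library for these 3 genes. Gimap5, Gimap8, Gimap9, Gimap3 and Gimap1 had log2 fold changes of -3.59, -2.97, -2.62, -2.30 and -2.11. In spleen ST2- CD44hi Tregs Gimap7 was at 347 ± 39.0 CPM and Gimap4 at 732 ± 24.6 CPM (SD, n = 5), means that lay within the range of the colon libraries. The calls of all 8 genes held in the 29 alternatives that were run. How reads shared by related GIMAP genes were counted is not given, and the annotated genes Gm28053 and Gimap1os overlap some of them, so that reads of the overlapping stretches cannot be assigned with certainty.

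**Figure D2:**
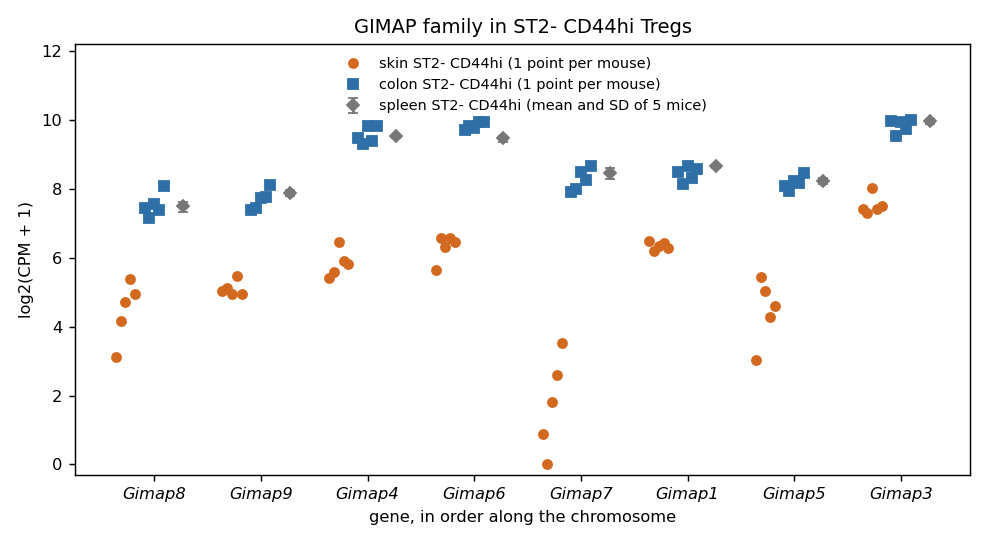
Levels of the 8 GIMAP genes as log2(CPM + 1) in ST2- CD44hi Tregs, with 1 point for each mouse in skin and colon and the mean with SD of 5 mice in spleen. In all 8 genes the 5 skin points lie below the 5 colon points, and the spleen mean lies near the colon points.

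Of the 16 other tested genes within 500 kb of the cluster, 0 were higher in skin (against 6.62% of all tested genes) and 6 were lower (against 8.96%), with log2 fold changes of -7.64 to 3.17 over the 16. Among the lower genes Gm28053 (named after its value was seen) lay between the first and the last GIMAP gene, and its counts may share reads with them. Promoter windows from 250 bases before to 50 bases after the annotated start were read from RefSeq (GRCm38.p6), where all 8 genes were matched with 9 windows, since Gimap8 had 2 overlapping ones. They were searched on both strands for 7 motifs, TGANTCA (AP-1), GAANNTTC (heat shock element), AGGAAG (ETS type), TGTGGT (RUNX type), CCACCC (KLF type), CACGTG (E-box) and an NF-kB motif. AGGAAG was found in 7 of 9 windows (77.8%), against 35.4% of all 32851 windows, and TGTGGT in 3 of 9 (33.3%) against 16.8%. CCACCC was in 5 (55.6%) against 31.5%, GAANNTTC in 1 (11.1%) against 7.86%, and the other motifs in 0 of the 9. Among the windows of tested genes alone, AGGAAG was in 33.8%, TGTGGT in 13.1%, CCACCC in 36.8% and GAANNTTC in 5.82%. The windows of the 3 GIMAP genes with the largest fold differences are shown because every member moved together, with AGGAAG and TGTGGT or their reverse complements in capitals (chr6:48718371-48718670, chr6:48684328-48684627 and chr6:48745947-48746246, plus strand). A match describes letters only and is no evidence of binding.
Gimap7: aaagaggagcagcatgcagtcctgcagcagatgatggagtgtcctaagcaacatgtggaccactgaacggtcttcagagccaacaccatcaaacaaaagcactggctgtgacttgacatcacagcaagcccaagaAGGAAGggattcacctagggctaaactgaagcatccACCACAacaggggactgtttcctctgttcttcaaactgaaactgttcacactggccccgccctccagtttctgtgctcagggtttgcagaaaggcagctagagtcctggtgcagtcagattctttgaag
Gimap4: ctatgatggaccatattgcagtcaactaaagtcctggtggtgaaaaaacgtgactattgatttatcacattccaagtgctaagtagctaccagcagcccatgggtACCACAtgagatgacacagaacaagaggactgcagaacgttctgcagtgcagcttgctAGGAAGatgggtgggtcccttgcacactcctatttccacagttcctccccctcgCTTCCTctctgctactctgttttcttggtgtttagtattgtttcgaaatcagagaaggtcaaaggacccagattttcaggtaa
Gimap5: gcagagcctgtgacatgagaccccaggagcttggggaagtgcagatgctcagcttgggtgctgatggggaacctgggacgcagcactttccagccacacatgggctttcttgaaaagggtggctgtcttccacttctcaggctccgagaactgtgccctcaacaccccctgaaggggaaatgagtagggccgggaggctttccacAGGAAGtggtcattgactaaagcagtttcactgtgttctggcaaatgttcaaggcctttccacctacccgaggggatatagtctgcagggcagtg

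Genes that define Tregs were split between the tissues. Of 20 Treg identity genes, 7 were higher in skin (Cd27, Ikzf2, Foxp3, Il2rb, Il2ra, Ikzf4 and Icos), 3 were lower (Izumo1r, Nrp1 and Gpr83) and 10 did not pass, with a median log2 fold change of 0.23. Over all tested genes 6.62% were higher and 8.96% lower, and the median was -0.10. Foxp3, which checks the sort, was at 319, 328, 365, 389 and 333 CPM in skin and at 201, 207, 195, 191 and 225 CPM in colon (log2 fold change 0.77 ± 0.13 SE, adjusted p = 6.86e-06), with all skin libraries above all colon libraries. Ikzf2, encoding the Treg transcription factor Helios, was at 978, 1198, 1574, 1925 and 1704 CPM in skin and 501, 684, 761, 873 and 836 CPM in colon (log2 fold change 1.01 ± 0.16 SE, adjusted p = 3.03e-06). Il2ra, which encodes CD25, was at 443, 870.4, 803, 889.9 and 620 CPM in skin and 429.9, 351, 369, 389 and 549 CPM in colon (log2 fold change 0.80 ± 0.16 SE, adjusted p = 0.000155). The Ikzf2 levels did not overlap, while skin mouse 1 fell within the colon range for Il2ra. Il2rb, the IL-2 receptor chain that transmits the signal, was also higher in skin (log2 fold change 0.84 ± 0.16 SE, adjusted p = 6.07e-05). Nrp1, encoding neuropilin-1, a surface marker often used with Helios for thymus-derived Tregs, went the opposite way to Ikzf2. It was at 66.3, 36.1, 55.3, 40.7 and 20.5 CPM in skin and 189.5, 243, 279, 315 and 108 CPM in colon (log2 fold change -2.36 ± 0.27 SE, adjusted p = 6.86e-10), without overlap. Izumo1r, the folate receptor family member FR4, was at 51.0, 27.6, 80.1, 48.5 and 59.7 CPM in skin and 394, 383, 291, 493 and 377 CPM in colon (log2 fold change -2.86 ± 0.22 SE, adjusted p = 1.54e-15). Gpr83, a receptor gene typical of Tregs, had 1 count over the 5 skin libraries and 569 over the 5 colon libraries, a ratio of 545 in favour of colon after scaling (exact 95% interval 97.5 to 21580, counting error only). Ctla4, the inhibitory receptor on which Treg suppression relies, had a log2 fold change of -0.31 that did not pass (adjusted p = 0.139). Icos passed narrowly at 0.60, and its fold fell under 1.5 without skin mouse 2, skin mouse 4 or colon mouse 4 (log2 0.54 to 0.58) and with the mouse as a block (0.58).

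**Figure D3:**
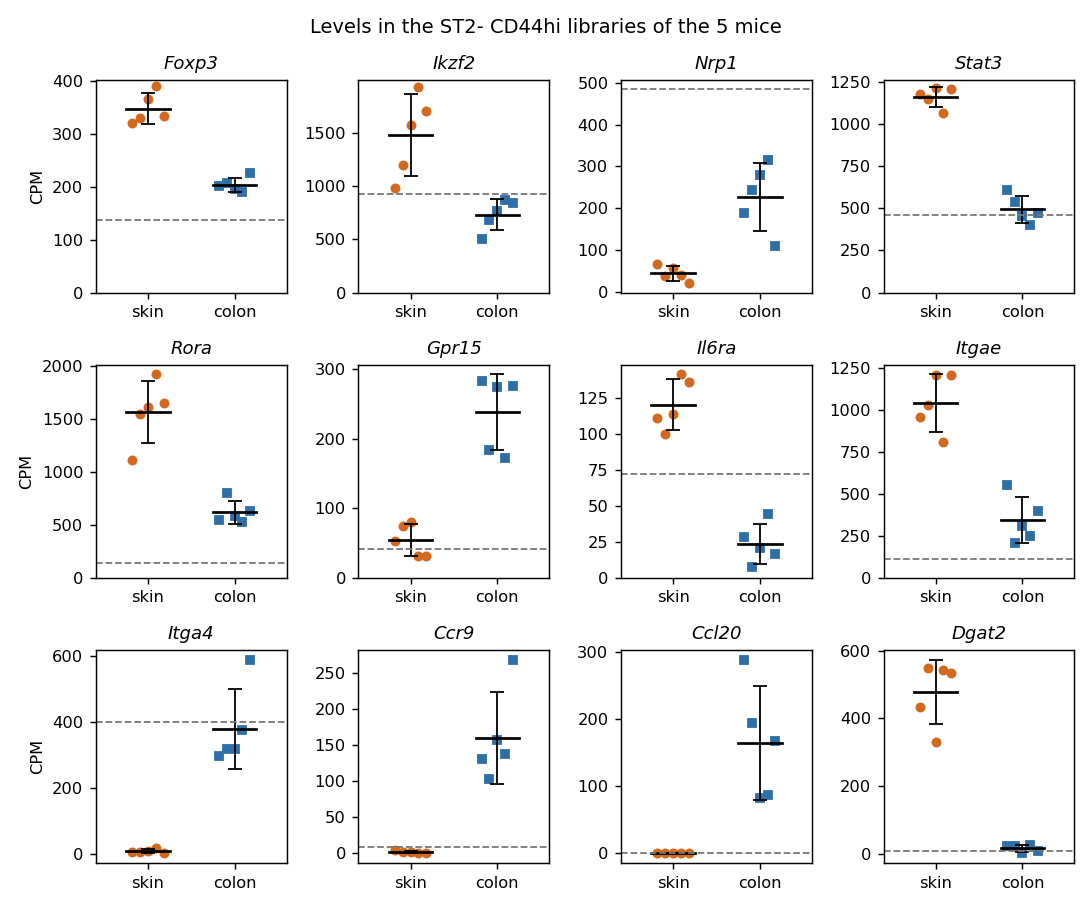
CPM of 12 genes in the ST2- CD44hi libraries of 5 mice, with 1 point for each mouse, the mean as a bar and the SD as an error bar. The dashed line is the mean of spleen ST2- CD44hi Tregs. Skin points lie above colon points for Foxp3, Ikzf2, Stat3, Rora, Il6ra, Itgae and Dgat2 and below them for Nrp1, Gpr15, Itga4, Ccr9 and Ccl20.

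Of 20 helper-lineage transcription factors 4 passed the test (against 15.6% of all tested genes), all higher in skin. They were Stat3 and Stat5a, which carry signals of the IL-6 and IL-2 receptor families, Rora, an orphan nuclear receptor, and Gata3, the Th2 master regulator. Stat3 was at 1178, 1144, 1212, 1065 and 1203 CPM in skin and 608, 538, 456, 401 and 472 CPM in colon (log2 fold change 1.23 ± 0.13 SE, adjusted p = 3.96e-10). Stat5a was at 301, 249, 345, 235 and 354 CPM in skin and 138, 74.6, 87.1, 90.1 and 87.7 CPM in colon (log2 fold change 1.64 ± 0.31 SE, adjusted p = 6.48e-05). Rora was at 1111, 1550, 1619, 1925 and 1655 CPM in skin and 551, 798, 587, 531 and 628 CPM in colon (log2 fold change 1.35 ± 0.28 SE, adjusted p = 0.000317). Skin libraries were above colon libraries without overlap for all 3, and the annotated ends of Stat3 and Stat5a overlap on opposite strands. Gata3 differed less, at 279.8, 352, 339, 376 and 337 CPM in skin and 273, 192, 175, 201 and 258 CPM in colon (log2 fold change 0.61 ± 0.13 SE, adjusted p = 0.000401), and its fold fell under 1.5 without colon mouse 2, colon mouse 3 or skin mouse 4 (log2 0.54 to 0.58).

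Tbx21, encoding the Th1 regulator T-bet, was at 184, 48.6, 148, 37.8 and 114 CPM in skin and 25.1, 7.59, 27.9, 16.4 and 39.6 CPM in colon (log2 fold change 2.19 ± 0.95 SE, adjusted p = 0.103), with skin mouse 4 inside the colon range. It passed with limma voom and quality weights (adjusted p = 0.0483) and when only the 10 libraries were fitted (0.00801). Bcl6 (log2 fold change 1.21) and Irf4 (-1.15) did not pass in the 14-group fit and passed in the fit of 10 libraries (adjusted p = 0.0345 and 0.0328). Stat4 (-0.39, adjusted p = 0.0464) was below a fold change of 1.5. Ahr, Maf, Batf, Runx1, Runx3, Stat5b, Stat6 and Zbtb7b did not pass, with log2 fold changes of -0.39, -0.27, 0.35, -0.30, 0.48, 0.25, -0.03 and 0.01. Eomes (0 counts over the skin and 3 over the colon libraries) and Hlx (13 and 15 counts) were too low to show a difference at this depth.

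Of 18 tested genes linked to intestinal Tregs, 4 were lower in skin (Ccr9, Gpr15, Lag3 and Il10) and 3 were higher in skin (Il6ra, Ikzf3 and Rora), against 8.96% and 6.62% of all tested genes. Il10, the suppressive cytokine, was at 237, 453, 309, 422 and 270.5 CPM in skin and 675, 803, 676, 382 and 783 CPM in colon (log2 fold change -0.97 ± 0.34 SE, adjusted p = 0.0375), with colon mouse 4 inside the skin range. That call was narrow, as it was lost with DESeq2 (adjusted p = 0.0604) and without any 1 of skin mice 1, 3 and 5 and colon mice 1, 2, 3 and 5 (0.0586 to 0.0990). Of 20 transcription factors linked to tissue Tregs, 5 were higher in skin (Cebpb, Ikzf3, Rora, Gata3 and Rel) and 1 was lower, against 6.62% and 8.96%. Cebpb, a factor of inflammatory and tissue-repair programmes, had a log2 fold change of 1.11, and Ikzf3, encoding Aiolos, one of 1.04. The lower gene was Bhlhe40 (log2 fold change -0.72 ± 0.24 SE, adjusted p = 0.0267), whose call was lost without skin mouse 2, skin mouse 3, colon mouse 1 or colon mouse 2 (adjusted p = 0.0519 to 0.0630).

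Genes of lymphoid recirculation and quiescence that passed were mostly lower in skin. Of 20 tested, 8 were lower (among them Bcl2, Klf3, Cxcr5, Klf2, Lef1, Tcf7 and Bach2) and 1, Il7r, was higher, against 8.96% and 6.62% of all tested genes. The median log2 fold change was -0.05, near that of all genes. Bcl2, which encodes an inhibitor of apoptosis, was at 22.1, 7.23, 10.2, 8.56 and 11.1 CPM in skin and 138, 113, 107, 304 and 122 CPM in colon (log2 fold change -3.67 ± 0.34 SE, adjusted p = 1.54e-12). Klf2, the factor that keeps lymphocytes recirculating, was at 127, 146, 119, 90.6 and 82.5 CPM in skin and 295, 336, 296, 268 and 179 CPM in colon (log2 fold change -1.28 ± 0.17 SE, adjusted p = 6.64e-08). The libraries did not overlap for either gene, and the spleen level was 382 ± 65.0 CPM for Bcl2 and 128 ± 18.6 CPM for Klf2 (SD, n = 5). The related Klf3 had a log2 fold change of -2.01. Bach2 (log2 fold change -1.56 ± 0.51 SE, adjusted p = 0.0239), a repressor that favours resting cells, lost its call without skin mouse 2 or 5 or colon mouse 4 (adjusted p = 0.0733 to 0.0856). It was also lost in edgeR's fit of the 10 libraries alone (0.139). Il7r, the IL-7 receptor (log2 fold change 0.61 ± 0.18 SE, adjusted p = 0.0115), fell under the thresholds with the mouse as a block (log2 0.58) and without skin mouse 2, skin mouse 4 or colon mouse 3 (0.46 to 0.57).

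Ccr9, Gpr15 and Itga4, which are known for entry into the gut and were grouped here after their values were seen, were lower in the skin cells. Ccr9, the receptor for the small-intestinal chemokine CCL25, was at 4.25, 1.31, 1.27, 0 and 0 CPM in skin and 130.2, 102, 157, 137 and 268 CPM in colon (log2 fold change -6.68 ± 1.34 SE, adjusted p = 0.000151). Gpr15, which guides T cells into the colon, was at 53.6, 74.2, 80.1, 31.4 and 31.0 CPM in skin and 283, 184, 275, 172 and 276 CPM in colon (log2 fold change -2.14 ± 0.52 SE, adjusted p = 0.00175). Itga4, the integrin alpha 4 chain that pairs with beta 7 for binding to gut vessels, was at 6.38, 6.57, 9.53, 18.6 and 2.93 CPM in skin and 297, 319, 318, 376 and 588 CPM in colon (log2 fold change -5.48 ± 0.33 SE, adjusted p = 1.45e-20). For all 3 genes every skin library was below every colon library. In spleen Itga4 was at 399 ± 98.4 CPM (SD, n = 5), within the range of the colon libraries. Itgb7, encoding that beta 7 chain, was at 648, 819.8, 726, 567 and 664 CPM in skin and 1011, 756, 884, 691 and 883 CPM in colon (log2 fold change -0.30 ± 0.10 SE, adjusted p = 0.0181), below a fold change of 1.5 and with overlapping libraries. Cxcr5, the B cell follicle receptor, had 1 count over the 5 skin libraries, in mouse 4, and was at 66.0, 66.4, 55.2, 54.7 and 33.5 CPM in colon, a ratio of 473 (exact 95% interval 84.4 to 18710, counting error only).

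Of 18 chemokine receptors 2 were thus lower in skin, and 2 were higher (against 8.96% and 6.62% of all tested genes). Ccr3, the eotaxin receptor, was at 71.0, 26.9, 43.2, 53.5 and 80.8 CPM in skin and 0.559, 10.8, 18.2, 0 and 15.8 CPM in colon (log2 fold change 2.65 ± 0.73 SE, adjusted p = 0.00695), without overlap. Cxcr4, the CXCL12 receptor, passed narrowly (log2 fold change 0.72 ± 0.26 SE, adjusted p = 0.0457), and its call was lost without skin mouse 2, 4 or 5 or colon mouse 1, 2, 3 or 5 (adjusted p = 0.0611 to 0.109). The skin-associated receptors Ccr4, Ccr8 and Ccr10 had log2 fold changes of -0.51, 0.73 and 1.28 and did not pass in edgeR's 14-group fit. Ccr8 did not overlap between the tissues and passed with limma voom and quality weights (adjusted p = 3.99e-05) and with the 10 libraries alone (0.00123). Cxcr6 (0.90) likewise passed with these alternatives (0.000595 and 0.00607). In the other direction, Ccr4 (log2 fold change -0.62, adjusted p = 0.0325) and Ccr1 (-1.48, 0.00818) passed as lower in skin with limma voom and quality weights. The log2 fold changes of Ccr1, Ccr2, Ccr6, Ccr7, Cxcr3, Cx3cr1, Ackr3, Xcr1 and Ccrl2 lay between -1.23 and 1.30 and did not pass in edgeR's 14-group fit.

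Integrin and adhesion genes moved both ways, with 5 of 24 higher in skin and 4 lower (against 6.62% and 8.96% of all tested genes). Itgae, encoding CD103, which holds T cells to epithelium, was at 958, 1031, 1209, 808 and 1210 CPM in skin and 551, 205, 309, 248 and 398 CPM in colon (log2 fold change 1.61 ± 0.54 SE, adjusted p = 0.0288), without overlap. Despite that separation the call was lost with DESeq2 (adjusted p = 0.0532) and without skin mouse 3 or 5 or colon mouse 2, 3 or 4 (0.0526 to 0.0768). Itgb8 and Itgav encode the integrin that activates latent TGF-beta, and both were higher in skin. Itgb8 was at 169, 200.3, 216, 299 and 269 CPM in skin and 51.4, 46.2, 74.1, 51.0 and 84.7 CPM in colon (log2 fold change 1.91 ± 0.38 SE, adjusted p = 0.000155), and Itgav had a log2 fold change of 1.33. Gcnt1, an enzyme that builds the core of selectin ligands, was at 478, 398, 480.5, 376 and 459 CPM in skin and 7.27, 38.0, 32.5, 23.2 and 30.5 CPM in colon (log2 fold change 4.07 ± 0.66 SE, adjusted p = 4.49e-06). All skin libraries exceeded all colon libraries for these genes. Cd44, which the sort selected as high in both tissues, was higher in skin by a small margin (log2 fold change 0.62 ± 0.20 SE, adjusted p = 0.0198), and the call was lost without colon mouse 4 (adjusted p = 0.0654). Besides Itga4 the lower genes included Cd96 (-1.77) and Cd226 (-1.80), an opposing pair of receptors for the same adhesion ligands.

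Among G protein-coupled receptors for lipids and metabolites, 2 of 19 were higher in skin and 5 were lower (against 6.62% and 8.96% of all tested genes). Gpr55, a lysophospholipid receptor, had a log2 fold change of 2.01 and S1pr4, a sphingosine 1-phosphate receptor, one of 1.24. The lower genes were Gpr15, Gpr34 (-2.61), Gpr18 (-2.35), the prostaglandin E2 receptor Ptger2 (-1.19) and Gpr183, the oxysterol receptor.

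Cytokine receptor genes were more often higher than lower in skin, with 11 of 32 higher and 2 lower (against 6.62% and 8.96% of all tested genes). Their median log2 fold change was 0.23, against -0.10 over all genes. Il6ra, the IL-6 receptor, was at 111, 99.8, 114, 141 and 136 CPM in skin and 28.5, 7.59, 20.8, 44.6 and 16.4 CPM in colon (log2 fold change 2.33 ± 0.29 SE, adjusted p = 7.25e-09), without overlap. Il1rl1, which encodes ST2 itself and so was bounded by the sort, was at 23.8, 121, 111, 139.9 and 194 CPM in skin and 0, 60.1, 26.6, 18.1 and 18.9 CPM in colon (log2 fold change 2.27 ± 0.43 SE, adjusted p = 6.84e-05). The other higher genes were Il2rb, Il2ra, Il21r, Il4ra, Il1r2, Il17ra, Ifnar1, Il6st and Il7r. The lower genes were Il27ra (log2 fold change -0.76 ± 0.13 SE, adjusted p = 1.38e-05) and Il12rb1 (log2 fold change -1.44 ± 0.50 SE, adjusted p = 0.0343), and the latter call was lost without skin mouse 1, 3, 4 or 5 or colon mouse 1, 3 or 5 (adjusted p = 0.0517 to 0.109). In the TNF receptor superfamily 4 of 16 were higher in skin (against 6.62% of all tested genes). These were Cd27, the death receptor Fas (1.48), Tnfrsf1b, encoding the TNF receptor that sustains Tregs (1.05), and Tnfrsf10b, whose call (log2 fold change 1.61 ± 0.57 SE, adjusted p = 0.0393) held only without skin mouse 1 or 4 when single libraries were removed (adjusted p = 0.0507 to 0.112 without the others). Tnfrsf13b, encoding the BAFF and APRIL receptor TACI (-2.04), and Tnfrsf26 (-1.65) were lower (against 8.96% of all tested genes). B and plasma cell markers were higher in every colon library than in every skin library, and the part of such cells in Tnfrsf13b was not tested.

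Of 30 suppressive and effector genes, which cover products of Tregs, 1 was higher in skin and 4 were lower (against 6.62% and 8.96% of all tested genes). Ccl20, the chemokine that attracts CCR6+ cells, had 0 counts in all 5 skin libraries and was at 289, 195, 82.5, 87.6 and 168 CPM in colon, which was at least 459-fold higher in colon, with 3 counts over the skin group as the floor. Tnfsf11, encoding RANKL, was at 37.0, 51.2, 47.0, 67.8 and 21.1 CPM in skin and 248, 236, 259, 222 and 216 CPM in colon (log2 fold change -2.40 ± 0.42 SE, adjusted p = 1.87e-05). Anxa1, the anti-inflammatory annexin, was at 182, 374, 287, 343 and 266 CPM in skin and 39.7, 125, 145, 91.8 and 60.9 CPM in colon (log2 fold change 1.65 ± 0.46 SE, adjusted p = 0.00652). The libraries of the tissues were apart for all 3 genes. Il4 (-4.72), at no more than 39.0 CPM in any library, and Il10 were the other lower genes. Of 24 inhibitory and costimulatory receptors, 3 were higher (Slamf1, Cd200r1 and Icos) and 6 lower (Cd226, Slamf6, Vsir, Lag3, Cd160 and Slamf7), against the same 6.62% and 8.96%. Slamf1 and Slamf6 belong to the same family of self-binding receptors and had log2 fold changes of 0.71 and -1.25. Vsir, encoding VISTA, had one of -0.78. Lag3, an inhibitory receptor for MHC class II, had 3 counts over the skin libraries and 132 over the colon libraries, a ratio of 42.2 (exact 95% interval 14.1 to 207, counting error only). Klrg1, a marker of terminally differentiated Tregs, had a log2 fold change of -0.10 and did not pass (adjusted p = 0.93).

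Heat shock genes were more often higher than lower in skin. Of 20 genes of the heat shock and unfolded protein response, 10 were higher and 2 lower (against 6.62% and 8.96% of all tested genes). The median log2 fold change was 0.54 (against -0.10 over all genes). Dnajb1, a cochaperone of HSP70, was at 552, 543, 682, 626 and 502 CPM in skin and 129, 212, 223, 187 and 124 CPM in colon (log2 fold change 1.73 ± 0.22 SE, adjusted p = 1.53e-08). Hspa1a, the stress-inducible HSP70, was at 231, 309, 318, 368 and 280.4 CPM in skin and 1.12, 57.5, 31.2, 2.53 and 42.0 CPM in colon (log2 fold change 3.50 ± 0.90 SE, adjusted p = 0.00316), although reads of the near-identical Hspa1b, which also passed, may be split between the 2 genes. In both genes all skin libraries exceeded all colon libraries. Hsph1, Hspe1 and Hsp90aa1 had log2 fold changes of 1.98, 1.25 and 1.02, and the remaining higher genes were Hspa8, Dnaja1, the stress-induced transcription factor gene Ddit3 and Hsp90ab1, whose fold fell under 1.5 without skin mouse 4 (log2 0.56). The 2 lower genes, Pdia4 (-0.92) and Sdf2l1 (-1.11), act in protein folding in the endoplasmic reticulum. Plasma cells are rich in such products, their markers were higher in every colon library than in every skin library, as given above, and their part in these 2 genes was not tested.

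Of the 10 higher heat shock list genes 7 were matched to RefSeq promoters with 11 windows. GAANNTTC was in 6 of these windows (54.5%), against 7.86% of all windows, and 2 of the 6 were overlapping windows of Hsph1. The others belonged to Hspa1a and its near-identical copy Hspa1b, to Hspe1 and to Dnaja1, which also had windows without it. No window of Dnajb1 or Ddit3 held this motif. CCACCC was also in 6 of the 11 (54.5%, against 31.5% of all windows) and AGGAAG in 4 (36.4%, against 35.4%). CACGTG was in 2 (18.2%, against 7.15%), TGANTCA in 1 (9.09%, against 7.81%) and the other motifs in 0. Among the windows of tested genes alone, GAANNTTC was in 5.82%, CCACCC in 36.8%, AGGAAG in 33.8%, CACGTG in 9.55% and TGANTCA in 5.2%. The windows of Hspa1a, which had the largest fold difference, and of Hsph1, which has no near-identical copy, are printed to show where it lay, with the motif in capitals (Hspa1a at chr17:34972107-34972406 and Hsph1 at chr5:149636266-149636565, GRCm38.p6, minus strand).
Hspa1a: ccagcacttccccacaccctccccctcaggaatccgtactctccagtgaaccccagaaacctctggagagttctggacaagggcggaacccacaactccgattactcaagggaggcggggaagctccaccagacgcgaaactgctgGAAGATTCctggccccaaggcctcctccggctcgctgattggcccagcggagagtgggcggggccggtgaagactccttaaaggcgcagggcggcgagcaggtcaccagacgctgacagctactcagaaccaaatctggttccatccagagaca
Hsph1: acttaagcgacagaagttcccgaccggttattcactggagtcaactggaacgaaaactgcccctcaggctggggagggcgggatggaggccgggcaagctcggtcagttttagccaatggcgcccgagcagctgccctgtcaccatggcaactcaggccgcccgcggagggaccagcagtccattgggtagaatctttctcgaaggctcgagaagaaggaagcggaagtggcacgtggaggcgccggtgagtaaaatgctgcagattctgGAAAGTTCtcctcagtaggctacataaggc

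Among AP-1 and immediate early genes 4 of 30 were higher in skin and 2 were lower (against 6.62% and 8.96% of all tested genes). Nr4a3, an orphan nuclear receptor induced by antigen receptor signals, was at 476, 467, 505, 542 and 505 CPM in skin and 126, 169, 79.3, 151 and 68.2 CPM in colon (log2 fold change 2.07 ± 0.38 SE, adjusted p = 3.31e-05). Jun, a core AP-1 subunit, was at 156, 260.1, 247, 236 and 95.4 CPM in skin and 449, 836, 659, 554 and 762 CPM in colon (log2 fold change -1.71 ± 0.41 SE, adjusted p = 0.00146). The tissues did not overlap in either gene, and the directions were opposite. Fosl2 (1.68), Dusp2 (0.83) and Nr4a2 (1.47) were the other higher genes and Myc (log2 fold change -0.84 ± 0.29 SE, adjusted p = 0.036) the other lower gene. Nr4a2 lost its call without colon mouse 3 or 5 (adjusted p = 0.0510 to 0.0512) and Myc without skin mouse 1 or 4 or colon mouse 1, 2 or 4 (0.0708 to 0.168). Myc was also not called with limma voom and quality weights (adjusted p = 0.327). The same held in edgeR's fit of the 10 libraries alone (0.205) and of the CD44hi libraries only (0.0522).

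Of 18 NF-kB subunits and feedback genes, 8 were higher in skin and 0 lower (against 6.62% and 8.96% of all tested genes). The median log2 fold change was 0.67 (against -0.10 over all genes). Nfkb1, encoding the p50 subunit, was at 395, 424, 562.5, 631 and 593 CPM in skin and 267, 309, 233, 315 and 287 CPM in colon (log2 fold change 0.88 ± 0.19 SE, adjusted p = 0.000317), without overlap. Nfkb2, of the noncanonical pathway, had a log2 fold change of 1.08, the nuclear cofactor Bcl3 0.77 and the inhibitor Tnip2 1.85, and Rel, Relb, Nfkbie and Tnip1 were also higher. The call of Tnip1 (log2 fold change 0.78 ± 0.27 SE, adjusted p = 0.0356) was lost without skin mouse 1, 2 or 5 or colon mouse 2 or 5 (adjusted p = 0.0526 to 0.107). The 10 members that did not pass lay between -0.10 and 0.95.

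Several genes of lipid storage and hormone reception were higher in skin. Dgat2, an enzyme of triglyceride synthesis, was at 435, 549, 331, 542 and 534 CPM in skin and 24.0, 22.8, 2.60, 28.2 and 8.53 CPM in colon (log2 fold change 4.76 ± 0.74 SE, adjusted p = 1.92e-06). Its unrelated counterpart Dgat1 was higher as well (0.88), together with Acsl4 (1.32) and Hmgcs1 (1.13). In all, 5 of 26 fatty acid and sterol genes were higher and 1 was lower (against 6.62% and 8.96% of all tested genes). The lower gene was Acsl5 (log2 fold change -0.62 ± 0.14 SE, adjusted p = 0.000989), whose fold fell under 1.5 without skin mouse 5 or colon mouse 4 (log2 -0.58 to -0.53). Of 21 vitamin, hormone and xenobiotic receptors and targets, 6 were higher (Tiparp, Rara, Nr3c1, Rarg, Rxra and Nr1d2) and 0 lower, against the same 6.62% and 8.96%. Nr3c1, the glucocorticoid receptor, was at 1104, 1328, 1240, 1501 and 1348 CPM in skin and 654, 797, 577, 561.7 and 655 CPM in colon (log2 fold change 1.01 ± 0.19 SE, adjusted p = 4.26e-05), without overlap. The retinoic acid receptor genes Rara and Rarg had log2 fold changes of 1.52 and 1.76, and Tiparp, a target of the aryl hydrocarbon receptor, had one of 1.43.

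Of 24 glycolysis and hypoxia genes 3 were higher in skin and 0 lower, against 6.62% and 8.96% of all tested genes, and 21 did not pass. Those 3 were Slc16a3, a lactate exporter (2.67), P4ha1, a collagen-modifying enzyme (1.68), and Gapdh (0.96). Of 20 TGF-beta pathway genes 5 were higher (Smad7, Itgb8, Smad4, Itgav and Ski) and 1, Tgfb2, was lower (against the same 6.62% and 8.96%). The feedback inhibitor Smad7 had a log2 fold change of 1.53 and the signal carrier Smad4 one of 0.72, while Tgfb2 had 0 counts in skin and 49 over the colon libraries, at least 15.7-fold more. Among 26 interferon-stimulated genes only Igtp (0.81) and Isg15 (1.27) passed, both higher in skin, against 15.6% of all tested genes in either direction. Of 26 cell cycle genes 0 passed in either direction in edgeR's test (smallest adjusted p = 0.141), against that 15.6%, with a median log2 fold change of -0.11.

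**Figure D4:**
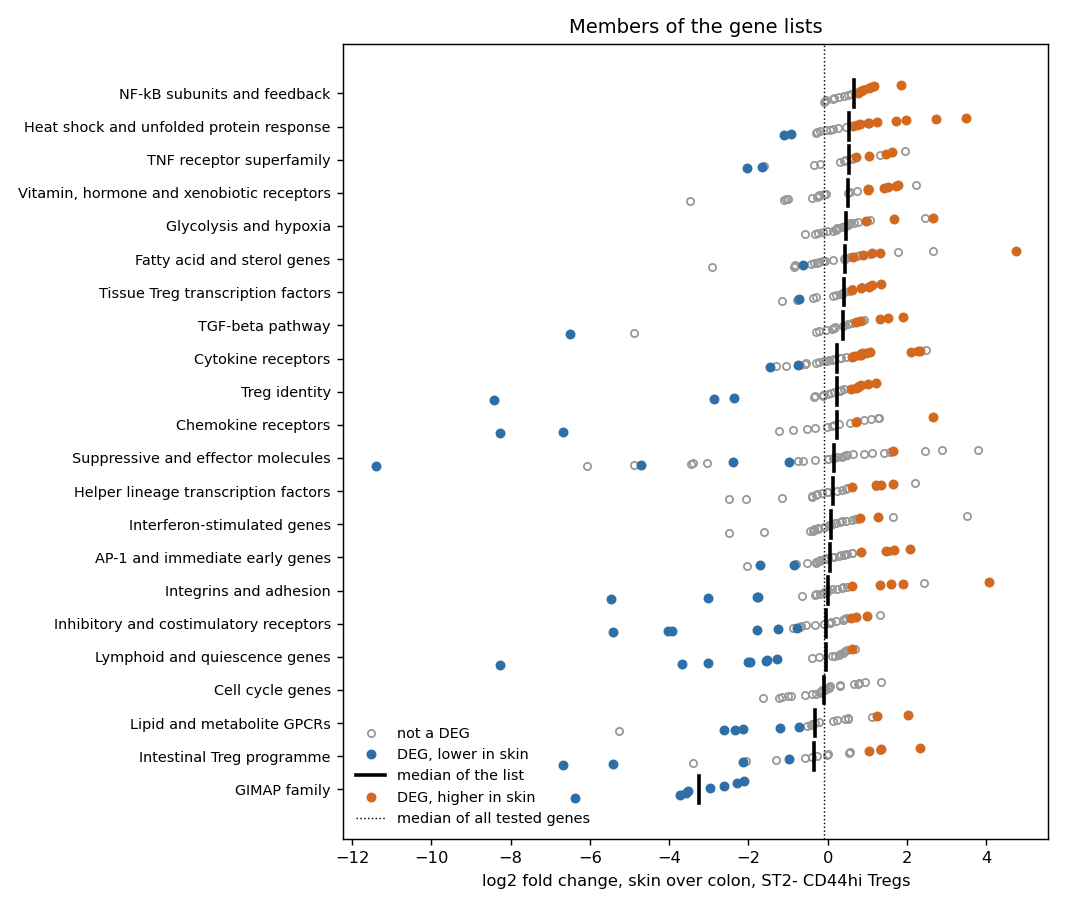
Log2 fold change, skin over colon, of every tested member of 22 gene lists in ST2- CD44hi Tregs. Filled points are DEGs, open points are not, the black bar is the median of the list and the dotted line that of all tested genes. The GIMAP list has all 8 points filled on the lower side, and the lists of NF-kB and heat shock genes have the medians farthest to the right.

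Beyond these lists, the genes with the smallest p among those higher in skin included Elovl5, a fatty acid elongase, at 465, 755, 660.3, 836 and 669.8 CPM in skin and 166, 232, 227, 226 and 226 CPM in colon (log2 fold change 1.65 ± 0.15 SE, adjusted p = 1.38e-12). Impact, a regulator of translation under amino acid stress, was at 354, 384, 397, 512 and 376 CPM in skin and 49.8, 65.8, 78.6, 76.2 and 82.8 CPM in colon (log2 fold change 2.52 ± 0.25 SE, adjusted p = 1.22e-11). All skin libraries were above all colon libraries in both. The others included Hacd3, which takes part in fatty acid elongation (1.22), Pcgf5, a Polycomb group subunit (1.82), Mif4gd (0.88), the MYC antagonist Mxi1 (2.19), Tmem123 (1.07), the GTPases Rhof (1.14) and Rab8b (1.17) and the ubiquitin ligase scaffold Cul2 (1.86). Sh3bp4 (4.27), the platelet-activating factor receptor Ptafr (4.56) and Rgmb (3.81), a coreceptor of bone morphogenetic proteins, had large folds at mean levels of at least 50 CPM.

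Among the lower genes Cirbp, a cold-inducible RNA-binding protein, was at 87.2, 81.5, 103, 74.9 and 88.4 CPM in skin and 319.7, 247, 289, 269 and 282 CPM in colon (log2 fold change -1.69 ± 0.12 SE, adjusted p = 3.10e-17). Art2b, a surface ADP-ribosyltransferase, had 0 counts in skin and was at 35.8, 80.3, 96.2, 152 and 97.5 CPM in colon, at least 274-fold higher. Asb2, a ubiquitin ligase adaptor, had 2 counts over the skin libraries and was at 626, 309, 407, 201 and 452 CPM in colon, a ratio of 1656 (exact 95% interval 458 to 13680, counting error only). The tissues did not overlap for any of these 3 genes, and Art2b was at 239.4 ± 28.5 CPM in spleen (SD, n = 5). Gbp2b, Adamdec1 and Derl3 were also at 0 in all skin libraries and at least 275-, 329- and 274-fold higher in colon. Adamdec1 ranged from 0.559 CPM in colon mouse 1 to 252.2 CPM in colon mouse 4, and Derl3, an endoplasmic reticulum gene that plasma cells use, from 29.6 to 190 CPM. The part of other cells in Adamdec1 and Derl3 was not tested. In all, 130 of the lower genes were at 0 in every skin library and 37 of the higher genes at 0 in every colon library. How many of all tested genes were at 0 in either tissue was not counted, so these numbers describe the DEGs only. The part of other cells in them was not tested.

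The same comparison was then made in ST2+ CD44hi Tregs, where 857 genes were higher in skin (6.51% of those tested) and 1392 lower (10.6%), 17.1% in all. Fitted to the 8 ST2+ libraries alone, the same method called 1144 genes higher and 906 lower, so that the share of higher genes was 55.8% in that fit and 38.1% in the fit of all 14 groups, and here too the more numerous direction depended on the fit. These libraries share no sample with those of the ST2- cells but come from the same mice. Macrophage and dendritic cell markers summed to 3715 to 4037 CPM in the 3 colon ST2+ libraries, above all colon ST2- libraries (545 to 2353 CPM), and to 482 to 708 CPM in skin ST2+ libraries. Of the 872 genes higher in skin in ST2- cells, 849 (97.4%) had the same sign in ST2+ cells and 541 (62.0%) were also DEGs in that direction. Of the 1180 lower genes, 1144 (96.9%) had the same sign and 702 (59.5%) were also DEGs, whereas 75.8% of all tested genes had the same sign. All 8 GIMAP genes were lower in skin in ST2+ cells too. Stat5a (3.03 in ST2+ and 1.64 in ST2- cells), Itgb8 (3.08 and 1.91), Itga4 (-5.03 and -5.48) and Dgat2 (3.22 and 4.76) passed in both populations.

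**Figure D5:**
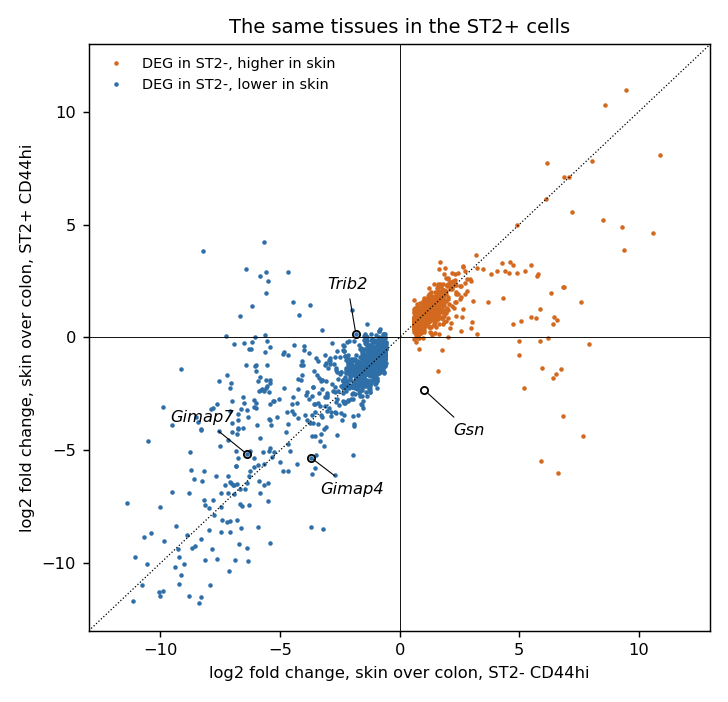
Log2 fold change, skin over colon, of the 2052 ST2- DEGs in ST2- CD44hi Tregs (x axis) and ST2+ CD44hi Tregs (y axis), with 1 point for each gene and the dotted line where both are equal. Most points lie in the quadrants of equal sign. The open circles mark Gimap7 and the 3 genes whose difference passed the test, and Gsn was not an ST2- DEG.

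The difference between the 2 populations was tested directly, and 3 genes passed (0.0228% of tested genes, with 0.0152% in the direction of a higher and 0.00759% of a lower log2 fold change in ST2- cells, against 793 genes at an unadjusted p under 0.05). Gimap4 was lower in skin in both populations and more so in ST2+ cells, with log2 fold changes of -3.72 in ST2- and -5.32 in ST2+ cells (difference 1.61 ± 0.27 SE, adjusted p = 0.00196). In ST2+ cells it was at 15.6 ± 7.42 CPM in skin (SD, n = 5) and 618 ± 35.0 CPM in colon (SD, n = 3). Trib2, a pseudokinase, was at 74.0, 29.6, 43.2, 61.4 and 35.7 CPM in skin and 187, 184, 150.1, 158 and 194 CPM in colon in ST2- cells (log2 fold change -1.83 ± 0.24 SE, adjusted p = 4.02e-08). It was at 51.3 ± 5.61 CPM in skin and 46.3 ± 8.81 CPM in colon in ST2+ cells (log2 fold change 0.16, difference -1.99 ± 0.38 SE, adjusted p = 0.0106). Trib2 was thus lower in skin in the ST2- cells, where all 5 skin libraries were below all 5 colon libraries. Gsn, encoding the actin-severing gelsolin, was at 140.3, 376, 149, 888 and 58.5 CPM in skin and 69.9, 269, 174, 196 and 75.5 CPM in colon in ST2- cells (log2 fold change 1.03 ± 0.43 SE, adjusted p = 0.0836) and had a log2 fold change of -2.33 in ST2+ cells (difference 3.37 ± 0.65 SE, adjusted p = 0.0106). Fibroblasts also use Gsn, and the summed fibroblast markers were 1010 CPM in skin mouse 4, the library with the highest Gsn, and 82.0 to 586 CPM in the other ST2- skin libraries, while they were 42.1 to 152 CPM in skin ST2+ and 414 to 1807 CPM in colon ST2+ libraries. Their part in the Gsn difference was not tested. With DESeq2 28 genes passed and with limma voom with quality weights 91 (78 with a higher and 13 with a lower log2 fold change in ST2- cells), so that the number depended on the method. Each of the 3 differences lost its call in some alternatives, which are given in the closing section. The rest of the 5 genes with the smallest p in each direction (Acss1, Gimap8, Stat5b, Cxcr3, Ogn, Foxo1 and Gfi1) had adjusted p of 0.0676 to 0.267.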

How the data were processed

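RNA-seq was analysed from the table of raw counts the authors deposited, in which HTSeq 0.4.1 had counted STAR alignments to GRCm38 per Ensembl gene after base calling with CASAVA 1.8.2, per the labels and the study's methods. The counting mode and the use of strand are not stated there. Of 53465 gene IDs, 53274 were found in GENCODE M21, and 13173 of 21865 protein-coding genes were tested, those that reached 1 CPM in 10% or more of 67 libraries. The other 3 of the 70 libraries had column totals under 1000000 and were left out. Counts were scaled by trimmed means of M-values and fitted over all 14 groups with edgeR 4.0.16 (R 4.3.3, quasi-likelihood test). All groups thus shared 1 estimate of the spread (common biological coefficient of variation 0.552). A prior count of 2 was set for log2 CPM values only, not for the fitted fold changes. DESeq2 1.42.0 and limma 3.58.1 were alternatives, and limma was used in the study. P-values were adjusted by Benjamini-Hochberg over all tested genes, and SE is the absolute log2 fold change divided by the square root of F.

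The members and gene lists were chosen with earlier results of these data known. Named genes were, in each direction, the 12 DEGs with the smallest p and the 6 with the largest fold at a mean of at least 50 CPM in the higher tissue, up to 4 DEGs of each list (other DEGs of a list are named without a test of their own), all helper factors, chemokine receptors and GIMAP genes, a set of Treg genes, markers of other cells above 50 CPM and the 5 genes with the smallest p in each direction for the difference between populations. Some genes that this rule names are not reported here. Of the other-cell lists, 74 genes were tested. Folds against a group at 0 used 3 counts over the group as the floor, and ratios with 1 to 3 counts have exact 95% intervals, which like the floor cover counting error only. The same 5 mice gave the skin and colon libraries, so the mouse number pairs them. Over 7529 genes, the deviations from the group means correlated at -0.02 to 0.16 within a mouse (mean 0.08) and at a mean of -0.02 between mice. No pair among the 20 within a group held identical counts. The scripts were tested on simulated counts. Figures and tables used Python 3.11.15, numpy 2.4.6, scipy 1.17.1, pandas 2.3.3 and matplotlib 3.10.9.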

Additional observations from a re-analysis of the deposited data

Results flagged for a closer look

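A single library stood apart from the other 4 of its group in 10 of 92 groups of 5 that were examined with Dixon's test at the 95% level, where chance gives about 1 in 20. Itga4 was at 588.5 CPM in colon mouse 5, against 297 to 376 CPM in the others. Bcl2 was at 22.1 CPM in skin mouse 1 (7.23 to 11.1 CPM in the others) and at 304 CPM in colon mouse 4 (107 to 138 CPM). Stat5a was at 138 CPM in colon mouse 1 (74.6 to 90.1 CPM), Elovl5 at 165.5 CPM in colon mouse 1 (226 to 232 CPM) and Impact at 512 CPM in skin mouse 4 (354 to 397 CPM). None of these libraries crossed into the range of the other tissue. Cxcr5 was at 0.714 CPM in skin mouse 4 and at 0 in the other skin libraries, and Krt14 at 0.6325 CPM in colon mouse 2 and at 0 in the other colon libraries, each from a single count. Krt14 reached 563 CPM in skin mouse 3 against 4.28 to 22.2 CPM in the others.

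For 3 genes the difference between skin and colon itself differed between ST2- and ST2+ cells. The log2 fold change in ST2- cells minus that in ST2+ cells was 1.61 for Gimap4, 3.37 for Gsn and -1.99 for Trib2.

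Genes outside the tested set also gave a signal. Igha, the constant region of immunoglobulin A, reached 1480 CPM in a colon ST2- library, against 1.91 to 14.4 CPM in skin. Muc2, the mucin of goblet cells, reached 1990 CPM in colon mouse 2, against 0 to 53.3 CPM in the other colon libraries and 0 to 0.714 CPM in skin.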

How the results depend on the processing

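The number of ST2- DEGs stayed within 1.5 times of 2052 in every alternative except glmTreat, which tests against a fold of 1.5 and called 717 (277 higher and 440 lower in skin), and which called 796 in ST2+ cells (234 higher and 562 lower). With DESeq2 there were 2224 ST2- DEGs, 1894 of them shared with the 2052, and with limma voom with quality weights 2346, of which 1794 were shared. With the mouse as replicate block there were 2101 (917 higher and 1184 lower), 1960 of them shared, and the block ended the calls of Icos and Il7r and of no other of 150 DEGs in the text. With the 10 libraries alone 1756 passed (959 higher and 797 lower), and with the 8 ST2+ libraries alone 2050 (1144 higher and 906 lower). Leaving out a mouse gave 1510 to 1827 ST2- DEGs (673 to 812 higher, 824 to 1055 lower) and 1203 to 2136 ST2+ DEGs (448 to 881 higher, 755 to 1255 lower), the lowest ST2+ counts being without mouse 3 (1203) and mouse 4 (1383). Leaving out single libraries gave 1757 to 1997. Without colon mice 2 and 3, which had the highest epithelial and endothelial markers, 1510 ST2- DEGs were found (649 higher and 861 lower), and without skin mice 1 and 3, with the highest keratinocyte markers, 1565 (718 and 847). These omissions were chosen after seeing the data and ended 20 and 14 of the 150 calls in the text.

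The genes that differed between populations numbered 3 with edgeR, 28 with DESeq2, 91 with limma voom with quality weights, 84 with voom alone (added after seeing the data), 1 with all 70 libraries, 1 with the compared groups alone, 0 with glmTreat and 0 to 5 without 1 mouse, with 0 when mouse 4 was left out, 1 without mouse 2 and 5 without mouse 5. Gimap4 was no longer called with limma voom and quality weights (adjusted p = 0.336), voom alone (0.510), glmTreat (0.151), the compared groups alone (0.354) and without mouse 4 (0.0766). Trib2 was no longer called with voom alone (0.0849), all 70 libraries (0.0908), glmTreat (0.151), the compared groups alone (0.0647) and without mouse 1 (0.0803), 2 (0.103) or 4 (0.194). Gsn was no longer called with all 70 libraries (0.152), glmTreat (0.131), the compared groups alone (0.354) and without mouse 1 (0.0803), 2 (0.0572), 3 (0.230) or 4 (0.387). The cause was not tested.

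Of the 150 DEGs in the text, 82 kept their call in every alternative, 68 lost it in at least 1 (61 with glmTreat) and 0 changed direction. Of 34 other genes, 10 passed in at least 1 alternative and 10 changed sign. On the log2 scale, omissions of 1 mouse or 1 library ran from -0.10 to 0.43 for Ccr7, -0.17 to 0.078 for Cxcr3, -2.40 to 2.38 for Cx3cr1, -0.040 to 0.27 for Ccrl2, -0.58 to 0.11 for Klrg1, -0.23 to 0.20 for Stat6, -0.29 to 0.16 for Zbtb7b, -1.79 to 0.76 for Hlx and -4.19 to 1.68 for Ogn. Without colon mice 2 and 3 the sign turned for Ccr7 (-0.12), Ackr3 (0.16) and Hlx (4.89), and without skin mice 1 and 3 for Ccr7 (-0.20), Klrg1 (0.25), Stat6 (0.13) and Hlx (0.59). It turned with the replicate block for Cxcr3 (0.0061), Stat6 (0.00036) and Ogn (-0.10), with limma voom and quality weights for Stat6 (0.044), Zbtb7b (-0.0094) and Ogn (-1.62) and with voom alone for Cx3cr1 (-0.010), Zbtb7b (-0.13) and Ogn (-1.82). Of 352 counts over gene lists, 300 stayed within 1.5 times.

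Depths of 1545763 to 2426957 counts from 220 cells limit genes of a few counts, whose folds are given as bounds or ratios with intervals.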
